A study of Mus musculus with 14 samples.

Results

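The 293 sites described here were the H3K27ac-enriched regions that started within 1 Mb of mouse chromosome 16, from position 24000000 to below 25000000 of the mm10 assembly. They were chosen by the density of the list itself, which held 122228 sites in all. The stretch holds Lpp as its only protein-coding gene. The cells were iMEF, immortalised mouse embryo fibroblasts grown as 1 clone, in which exon 4 of endogenous Ash2l had been excised with 4-hydroxytamoxifen. All of them, the controls included, carried a lentiviral human ASH2L with an N-terminal FKBP tag, so that the tagged protein is degraded when dTAG-13 is added. ChIP-seq for H3K27ac was carried out on 2 libraries each of control cells without dTAG and of cells treated with dTAG for 30 min, 2 h, 4 h, 8 h or 16 h, and 1 input library each was made for the control and for 16 h. The list analysed is a single set of positions joined over all of these samples. It gives no signal per sample and no read counts, so the depth behind a site is unknown, no difference between control and dTAG cells was computed, and the cell type was not checked against marker genes.

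H3K27ac is an acetyl mark that p300 and CBP place on histone H3 at active promoters and at active enhancers, which often lie in introns. Lpp encodes lipoma-preferred partner, a LIM domain protein of the zyxin family that sits at focal adhesions and along actin bundles and shuttles to the nucleus. Fibroblasts and smooth muscle cells are known for high levels of it. Lpp also hosts the miRNA gene Mir28a in an intron.

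Lpp lies on the plus strand at chr16:24393507-24992578 and spans 599.1 kb. Its reference transcript, Lpp-201, has 13 exons and 12 introns. Annotated 5′ ends of Lpp fall into several places, and their sequences differ. Below are the promoter at the outermost RefSeq 5′ end (chr16:24393100-24393399), the 250 bases before the 5′ end of Lpp-202 in intron 2 (chr16:24447841-24448090) and the promoter of the transcript that starts in intron 7 (chr16:24721605-24721904). The first and the third came from RefSeq's promoters on GRCm38.p6, the second from the GRCm38.p6 genome, and all are on the plus strand. Capitals mark CpG dinucleotides. The outermost promoter held 19 CpG in 300 bases, the Lpp-202 stretch 3 in 250 bases and the intron 7 promoter 2 in 300 bases.
Lpp outermost promoter: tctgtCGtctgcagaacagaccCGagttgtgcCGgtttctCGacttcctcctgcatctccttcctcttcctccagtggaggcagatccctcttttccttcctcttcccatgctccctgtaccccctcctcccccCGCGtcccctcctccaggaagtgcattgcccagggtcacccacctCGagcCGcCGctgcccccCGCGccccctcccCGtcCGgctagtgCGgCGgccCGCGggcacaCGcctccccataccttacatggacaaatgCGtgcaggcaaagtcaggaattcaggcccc
Lpp-202 upstream: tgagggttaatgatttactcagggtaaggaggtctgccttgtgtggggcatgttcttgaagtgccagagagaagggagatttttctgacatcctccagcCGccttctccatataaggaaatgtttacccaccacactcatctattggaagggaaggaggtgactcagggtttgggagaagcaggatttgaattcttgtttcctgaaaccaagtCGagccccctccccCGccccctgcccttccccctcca
Lpp intron 7 promoter: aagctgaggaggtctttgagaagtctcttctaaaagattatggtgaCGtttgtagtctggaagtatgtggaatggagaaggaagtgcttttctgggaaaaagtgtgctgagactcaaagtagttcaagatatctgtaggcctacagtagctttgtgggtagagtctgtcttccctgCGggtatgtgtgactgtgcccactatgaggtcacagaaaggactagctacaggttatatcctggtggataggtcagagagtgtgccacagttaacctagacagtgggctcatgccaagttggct

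The sites away from these 5′ ends are represented by the central 200 bases of the widest site in each of introns 3, 7 and 10, and of the widest site outside the gene. They lie at chr16:24490815-24491014, chr16:24714260-24714459, chr16:24912771-24912970 and chr16:24205978-24206177 (plus strand, GRCm38.p6), with CpG again in capitals. They held between 0 and 3 CpG each. None of these windows held a match to the AP-1 motif TGANTCA or the TEAD motif GGAATG on either strand, whose shares over all sites are given further on. The intron 3 site held 3 AP-1 and 9 TEAD matches over its full 4670 bp, and its window held the RUNX motif TGTGGTT. Among the promoter stretches above, that before Lpp-202 held 1 AP-1 match and the intron 7 promoter 1 TEAD match. Introns 3 and 7 had the most sites, and intron 10 was tied with intron 1, whose widest site is the one over the 5′ end.
Intron 3 site: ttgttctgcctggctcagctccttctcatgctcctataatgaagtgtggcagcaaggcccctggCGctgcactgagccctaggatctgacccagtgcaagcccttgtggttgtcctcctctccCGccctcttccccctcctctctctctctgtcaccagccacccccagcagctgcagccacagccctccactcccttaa
Intron 7 site: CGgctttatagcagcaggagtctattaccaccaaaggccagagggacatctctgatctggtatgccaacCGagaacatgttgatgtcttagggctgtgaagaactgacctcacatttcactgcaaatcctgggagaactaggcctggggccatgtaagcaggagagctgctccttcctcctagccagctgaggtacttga
Intron 10 site: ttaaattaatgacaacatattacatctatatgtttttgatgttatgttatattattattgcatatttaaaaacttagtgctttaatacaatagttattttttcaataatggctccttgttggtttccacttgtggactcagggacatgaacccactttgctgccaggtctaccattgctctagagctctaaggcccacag
Site outside Lpp: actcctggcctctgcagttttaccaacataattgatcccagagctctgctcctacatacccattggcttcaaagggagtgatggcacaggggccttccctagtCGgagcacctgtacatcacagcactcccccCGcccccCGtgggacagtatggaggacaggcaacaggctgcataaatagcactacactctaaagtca

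The Lpp megabase ranked 4 of 2645 bins of 1 Mb on chromosomes 1 to 19 and X by the number of sites, against a median of 34 sites in a bin. With bins shifted by 0.5 Mb, the bin that holds the Lpp 5′ end had 152 sites and ranked 78. This is the property that chose the stretch and is given as a description. The bins that ranked above it held 362, 357 and 299 sites, and the next below it held 272. The sites covered 162.2 kb, or 16.2% of the megabase, which ranked 16 by base pairs covered. The neighbouring megabases held 112 sites (the one before) and 82 (the one after). At the edges, the last site before the stretch was chr16:23993765-23994000 (236 bp), and the first member was chr16:24023248-24023886 (639 bp). The last member was chr16:24991895-24992253 (359 bp), inside exon 13, and the first site after the stretch was chr16:25011374-25011944 (571 bp). The nearest protein-coding genes were Bcl6, a transcriptional repressor of germinal centre B cells, 404.7 kb before Lpp with 9 sites of its own, and Tprg, 294.2 kb after it with 14.

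**Figure D1:**
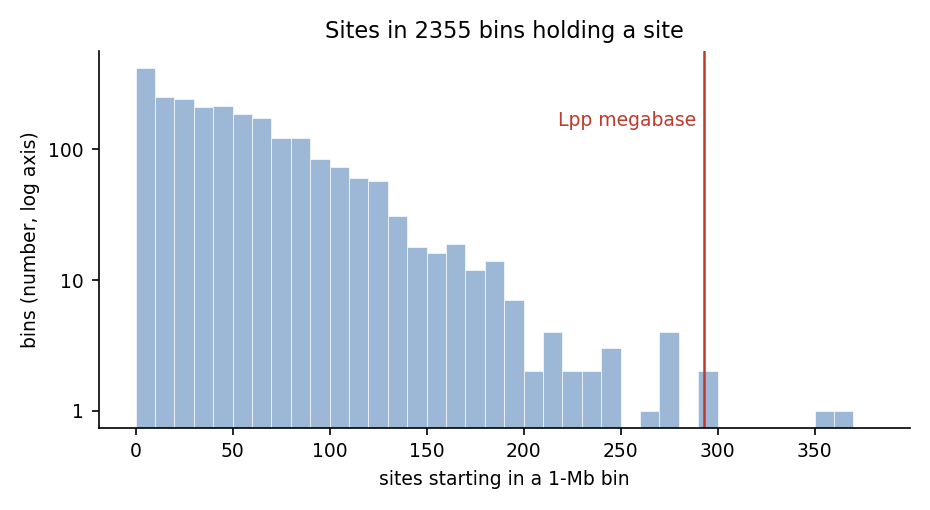
Histogram of the number of H3K27ac sites that start in each 1-Mb bin (x axis, sites per bin; y axis, number of bins on a log scale) for the 2355 bins with at least 1 site. The red line marks the Lpp megabase at 293 sites, with 3 bins to its right by rank.

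Of the 293 sites, 252 had their middle inside Lpp (86.0%, Wilson 95% interval 81.6 to 89.5), 41 lay upstream of it (14%, 10.5 to 18.4) and none lay in the 7422 bp after it. Inside the gene, 23.0% of the bases were in sites, against 5.76% of the 393.5 kb upstream. Nearly all of the sites in Lpp were intronic: 248 had their middle in an intron of Lpp-201 and 4 in an exon, namely exon 5, exon 7 and, for 2 sites, exon 13, which is 13386 bp long. Only 10 members touched an exon of any GENCODE transcript of Lpp (3.41%, 1.86 to 6.17). Exons found in RefSeq alone were not counted. Intervals here cover counting error only, and sites are not replicates.

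**Figure D2:**
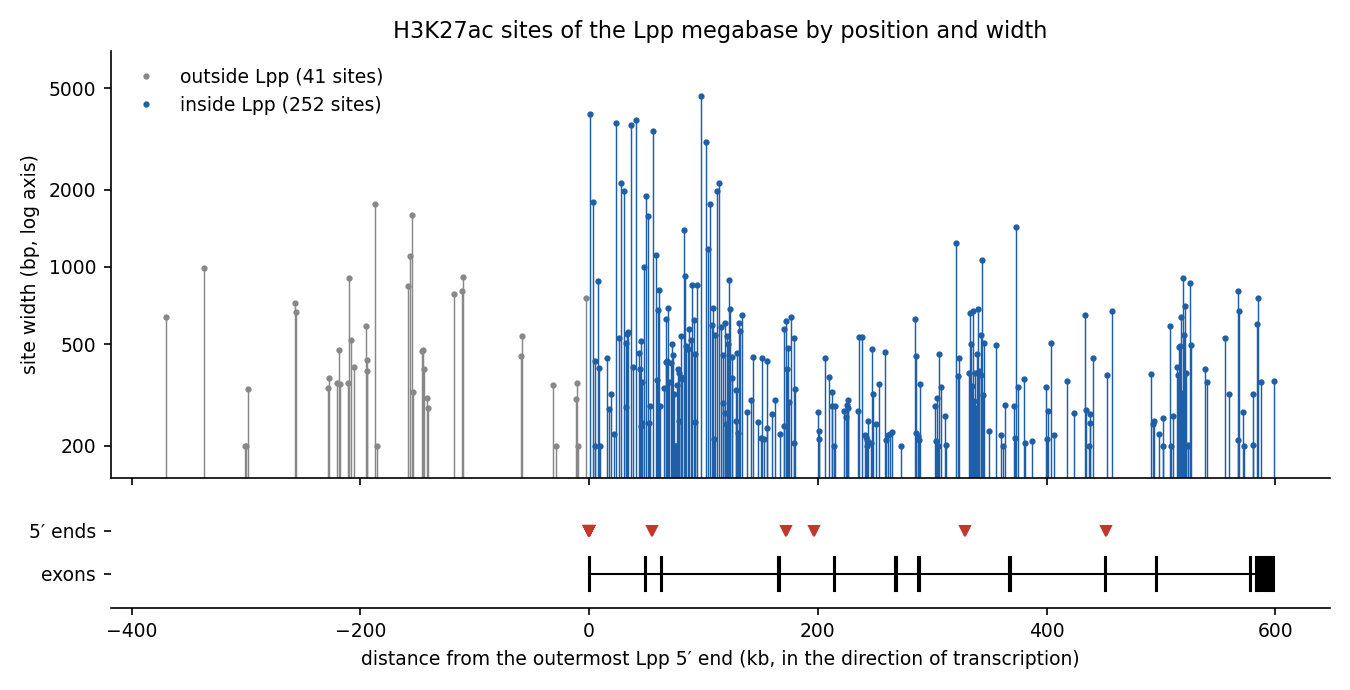
Each of the 293 sites by its distance from the outermost GENCODE 5′ end of Lpp (x axis, kb) and its width (y axis, bp on a log scale), with sites outside the gene in grey and inside it in blue. The lower panel shows the exons of Lpp-201 (black) and the 5′ ends annotated by GENCODE and RefSeq (red). All 9 sites over 2 kb wide lie in the first 150 kb of the gene.

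Sites were present in all 12 introns, at densities that differed by several fold. Intron 2 was the densest, with 10 sites in 13.94 kb (7.17 per 10 kb), followed by intron 3 with 70 sites in 102.6 kb (6.82 per 10 kb). Counted per 10 kb outside repeats the order of these 2 introns turned, at 8.36 for intron 3 and 8.32 for intron 2. Intron 1 followed closely, with 29 sites in 49.18 kb (5.90 per 10 kb). Introns 11 and 12 are short, and their densities of 5.78 and 5.34 rest on 3 sites and 1 site. The long introns further on were sparser. Intron 4 held 19 sites (3.92 per 10 kb), intron 5 held 23 (4.31), intron 7 held 34 (4.26), intron 8 held 20 (2.42) and intron 10 held 29 (3.54). Intron 9 was the sparsest, with 5 sites in 44.57 kb (1.12 per 10 kb), and contained the longest stretch of the gene without a site, 33.2 kb.

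The contrast was greater in base pairs than in number. Sites took up 59.3% of intron 1, 72.6% of intron 2 and 43.0% of intron 3, whereas introns 4 to 11 lay between 4.32% in intron 9 and 17.9% in intron 7. Intron 12, of 1.872 kb, was at 44.4% through the site inside it and a site that reached in from exon 12. Median widths were 463 bp in intron 1, 746.5 bp in intron 2 and 449 bp in intron 3. They were 325 bp in intron 4, 259 bp in intron 5, 362.5 bp in intron 7, 275.5 bp in intron 8 and 386 bp in intron 10.

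**Figure D3:**
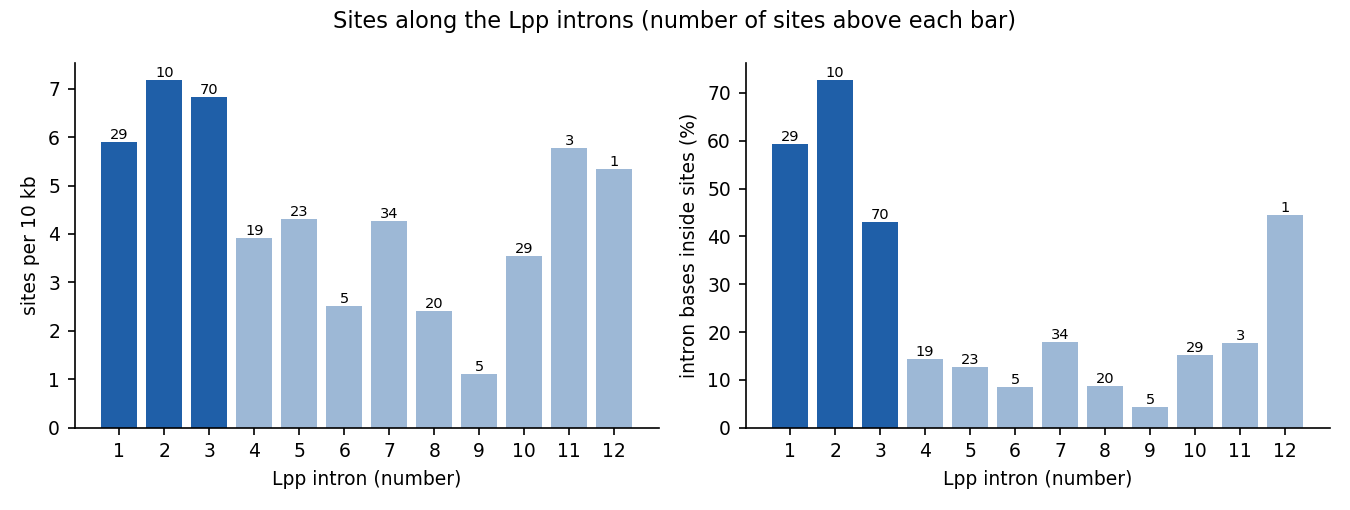
Sites per 10 kb (left) and percent of intron bases inside sites (right) for the 12 introns of Lpp-201, with the number of sites printed above each bar and introns 1 to 3 in dark blue. The bases inside sites fall from between 43.0% and 72.6% in introns 1 to 3 to between 4.32% and 17.9% in introns 4 to 11.

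Measured by distance rather than by intron, the first 150 kb of Lpp held 102 of its 252 sites (40.5%) and 59.5% of the base pairs in them. The median width was 470.5 bp there and 316.5 bp in the remainder. Of the sites in Lpp wider than 1 kb, 18 lay in these 150 kb (85.7%), as did all 9 sites wider than 2 kb. By windows of 50 kb, the share of bases in sites was 64.4%, 56.9% and 44.7% in the first 3 windows and 13.8% in the next. Beyond that the share stayed between 4.30% and 14.4%, apart from 25.3% at 300 to 350 kb and 18.6% at 500 to 550 kb. In the 50 kb just before the gene it was 4.33%. Of all the base pairs in Lpp sites, 50% lay within 111 kb of the 5′ end, while 50% of the sites lay within 213 kb. Across the 252 sites, width and distance from the 5′ end had a Spearman rho of -0.249, a description over neighbouring sites of a single gene.

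Other long genes were counted in the same way for comparison. Among 77 protein-coding genes of 300 kb or more with at least 50 sites, the median gene had 21.4% of its sites and 25.2% of the base pairs in them in the first 25% of its length. Lpp, at 40.5% and 59.5%, was above 68 genes by sites and above 75 by base pairs. The excess of the base pair share over the site share was 19 percentage points in Lpp, the largest of the 77 genes, with Adgrl3 next at 13.2 and a median of 0.75. The median width in the first 25% was 1.49 times that of the remainder in Lpp, against a median of 1.09 over the 74 genes with a site in that part, and 65 of these were below Lpp. The choice of Lpp used the number of sites in the megabase and neither their place within the gene nor their width. However, the comparison was chosen after the Lpp values were seen. In Lpp its 25% mark falls at about 150 kb, where the share of bases in sites drops from 44.7% to 13.8% between windows of 50 kb. The cut thus suits Lpp, and its place among the 77 genes is a description only. No test was made.

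**Figure D4:**
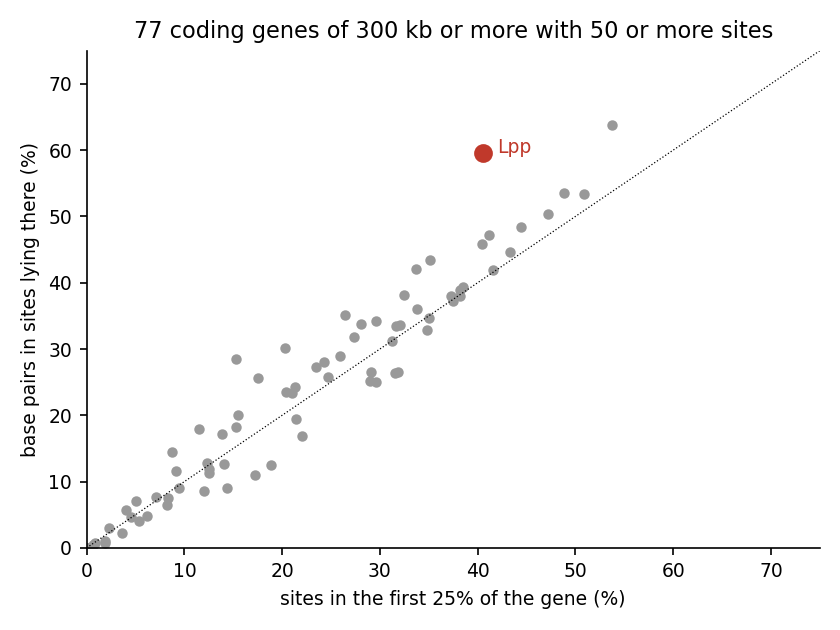
Share of a gene's H3K27ac sites in the first 25% of its length (x axis, %) against the share of the base pairs in sites lying there (y axis, %), for 77 coding genes of 300 kb or more with 50 or more sites. The dotted line marks equal shares, and Lpp (red) lies at 40.5% and 59.5%, the furthest above it.

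The widest member was chr16:24488580-24493249 (4670 bp), in intron 3 at 97.4 kb from the 5′ end. It is the source of the intron 3 sequence shown above and lay 38.48 kb from the nearest annotated start, that of the pseudogene Morf4l1-ps1. Next came the site over the 5′ end of Lpp, chr16:24392024-24395997 (3974 bp). The next 3 were in intron 1, chr16:24432894-24436632 (3739 bp), chr16:24415478-24419146 (3669 bp) and chr16:24428208-24431790 (3583 bp). Thus 4 of the 5 widest sites did not cover a start of transcription. The GC content of these 4 lay between 48.0% and 48.8%, against 55.1% in the site over the 5′ end.

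As a whole the members were not wide. They had a median width of 378 bp, with the middle 50% between 266 and 556 bp. The whole list had a median of 401 bp, with the middle 50% between 265 and 723 bp, and the median was 369 bp in the part of the list beyond 1 kb of any annotated start. Sites over 1 kb made up 8.19% of the members, 15.9% of the list and 11.9% of the list beyond 1 kb of a start. Sites over 2 kb made up 3.07% of the members, 4.33% of the list and 3.27% of the list beyond 1 kb of a start. At the lower end, 19 members (6.48%) had the minimum width of 200 bp, against 5.77% of the list. The 41 upstream sites had a median of 432 bp and reached 1759 bp. In the 1-Mb bin around Spred1, the densest of all, the median width was 406.5 bp, and in the bin around Tead1, the second, it was 431 bp with 27 sites over 2 kb against 9 here.

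**Figure D5:**
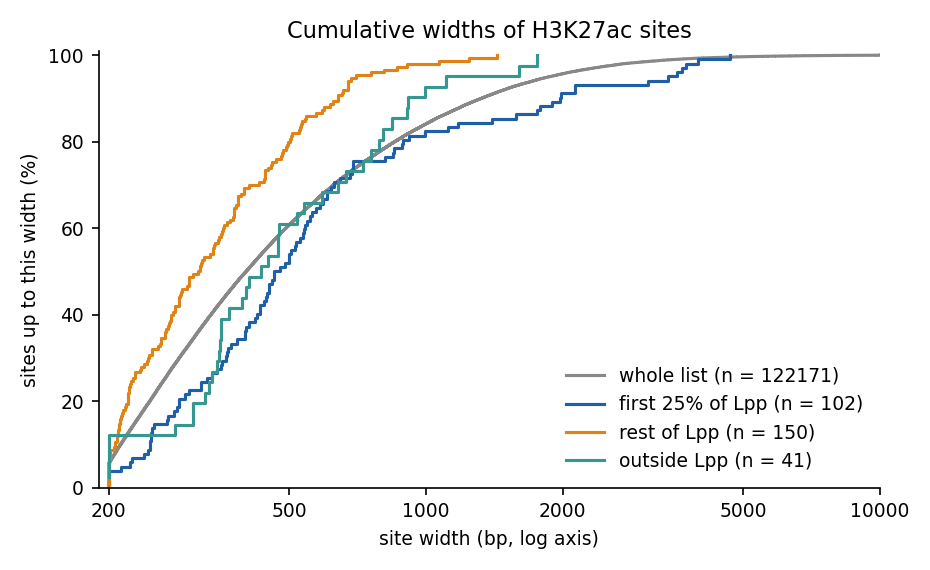
Cumulative share of sites (y axis, %) up to each width (x axis, bp on a log scale) for the whole list (grey), the first 25% of Lpp (blue), the remainder of Lpp (orange) and the sites outside Lpp (green). The orange curve lies to the left, with a median of 316.5 bp, and the blue curve reaches the widest sites, up to 4670 bp.

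Few of the members lay at promoters. The middle of 5 of 293 sites was within 1 kb of a start annotated by GENCODE (1.71%, 0.731 to 3.93), against 18.7% of the whole list. The share was 2.21% in the Spred1 bin, 5.04% in the Tead1 bin and 10.7% in the megabase before Lpp, which has 13 protein-coding genes. It was 2.44% in the megabase after, near that of the members. Counting only GENCODE starts of protein-coding transcripts left 1 site, the one over the 5′ end of Lpp. A start that RefSeq alone places in intron 4 of Lpp, for a predicted transcript, had 2 further sites with their middle within 1 kb. The site over the 5′ end of Lpp also covered the start of Lppos, a divergent non-coding RNA whose start lies 81 bp inside Lpp. The other 4 of the 5 sites near a GENCODE start were narrow. A pair of sites, chr16:24381972-24382277 (306 bp) and chr16:24382364-24382716 (353 bp), flanked or covered the start of the non-coding gene AC169509.1, 11.12 kb before Lpp. The remaining ones were chr16:24828062-24828338 (277 bp) at Mir28a and chr16:24884146-24884527 (382 bp) over the snoRNA gene Gm22672.

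The annotated 5′ ends of Lpp differed in whether a site covered them. All 7 of the distinct GENCODE and RefSeq ends between 24393350 and 24393738 were inside the 3974-bp site. Around the end of Lpp-201, at 24393540, the 1 kb of sequence had 72.4% GC and a ratio of observed to expected CpG of 0.747. The end of Lpp-202 in intron 2, at 24448091 and 54.58 kb into the gene, was inside the 3411-bp site chr16:24447563-24450973. The surrounding 1 kb had 49.5% GC and a CpG ratio of 0.116, so this covered start lacked the CpG density of the first, as the sequences above show. Sites took up 72.6% of intron 2, so most positions there were covered. The middle of the 3411-bp site lay 1177 bp from this start. A RefSeq end in intron 4, at 24565640, was inside a site of 614 bp, chr16:24565328-24565941. This end and the RefSeq end at 24589712 belong to predicted transcripts only. The other ends were not covered. The nearest site was 3484 bp from the RefSeq end at 24589712, 3869 bp from the end of Lpp-203 at 24721855, and 951 bp from the end of Lpp-206, a nonsense-mediated decay transcript, at 24845175. At Lpp-203 that nearest site, chr16:24725724-24726109 (386 bp), was the first of a cluster of 11 sites in intron 7.

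Mir28a lies in intron 8, 434.4 kb from the 5′ end of Lpp. The mature sequences from RefSeq are shown with the seed (bases 2 to 8) in capitals, because Mir28a is the miRNA gene that lies within Lpp. The sites on either side were chr16:24826432-24827083 (652 bp), which ended 784 bp before miR-28a-5p, and the 277-bp site named above, which began 132 bp after miR-28a-3p. Neither overlapped the hairpin, and the seeds of the arms differ.
mmu-miR-28a-5p: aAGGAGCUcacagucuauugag
mmu-miR-28a-3p: cACUAGAUugugagcugcugga

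Joining sites less than 1 kb apart gave 108 clusters, of which 52 were single sites. Of the members, 82.3% were in clusters of at least 2 sites. The median gap between neighbouring members was 587.5 bp, against 1044 bp in the whole list, and 63.4% of gaps were under 1 kb, against 49.4%. Gaps follow from density, which chose the stretch. There were 14 clusters of 5 or more sites and 5 clusters of 10 or more, and these 5 held 80 sites. The whole list had 617 clusters of 10 or more among 61769.

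The largest cluster, chr16:24415008-24455813, ran for 40.81 kb through the end of intron 1 and most of intron 2. It held 29 sites, 78.5% of its bases were inside them, and it ranked 13 by sites and 18 by length among all clusters of the list. Its sites ranged from 223 to 3739 bp with a median of 527 bp, 9 were over 1 kb, and the gaps between them ran from 19 to 903 bp. The widest site with an AP-1 match in its central 200 bases, chr16:24432894-24436632, belongs to this cluster. The window chr16:24434663-24434862 (plus strand, GRCm38.p6) is shown with the match in capitals as an example chosen after the values were seen.
Intron 1 site: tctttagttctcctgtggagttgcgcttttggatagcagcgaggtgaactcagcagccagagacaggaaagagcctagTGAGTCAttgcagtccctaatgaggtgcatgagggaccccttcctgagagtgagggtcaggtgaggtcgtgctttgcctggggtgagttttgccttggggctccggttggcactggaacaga

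A second dense block ran through intron 3 from 65.25 to 133.7 kb, with 6 clusters of 5 or more sites and 1 of 2 sites. The longest of these, chr16:24487569-24510785, held 14 sites in 23.22 kb, including the widest member, with 81.9% of its bases in sites and a median width of 769.5 bp. Before it lay chr16:24464694-24478449, with 16 sites in 13.76 kb and a median width of 391.5 bp. Around the 5′ end itself a cluster of 5 sites, chr16:24390574-24399053, spanned 8.48 kb. Between it and the largest cluster lay a cluster of 3 sites and 3 single sites. Further along, chr16:24725724-24733399 in intron 7 held 11 sites in 7.676 kb (median 386 bp), and chr16:24907472-24915426 in intron 10 held 10 sites in 7.955 kb (median 488.5 bp). They lay in the windows of 300 to 350 and 500 to 550 kb. No site in either cluster was over 1 kb. A site-free stretch of over 10 kb occurred 19 times, the 3 longest of them upstream of Lpp (50.4, 40.9 and 35.4 kb).

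The 41 sites outside Lpp were spread over 1.04 sites per 10 kb, from 369.9 kb before the gene to 2.55 kb before it. Of these, 33 lay inside AC169509.1, a pseudogene with processed transcripts that runs against Lpp for 259.7 kb. Within it, 15 sites lay in the non-coding gene Gm31814 and 2 in Gm32126. Gm49518 held 1 site, and Gm46545, Gm31583 and Gm41434 held none. Apart from the pair at the start of AC169509.1 and the site over Lppos, no start of these non-coding genes had a site within 1 kb by its middle. The widest upstream sites were chr16:24205199-24206957 (1759 bp) and chr16:24237465-24239065 (1601 bp), both within Gm31814.

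In GC content the members were near the distal sites of the list, and in repeats they were lower. Their median GC content was 47.5%, against 48.8% in the list and 48.2% beyond 1 kb of a start, and the megabase as a whole had 42.1%. The median share of repeats was 8.18%, against 11.0% in the list, 11.9% beyond 1 kb of a start and 8.26% within 1 kb of one, and 19.8% of the megabase is repeat. The median CpG ratio was 0.175 in the members, 0.205 in the list and 0.183 in the list beyond 1 kb of a start. A CpG ratio of 0.6 or more was found in none of the members but in 8.36% of the list, promoter sites included. The site over the Lpp 5′ end, with 0.526 over its full 3974 bp, was under this value. A ratio of 0.4 or more was found in 11 members (3.75%), against 16.9% of the list.

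Motif matches in the central 200 bases, counted on both strands, were about as frequent as in the list. AP-1 factors bind TGANTCA and TEAD factors, the DNA-binding partners of YAP and TAZ, bind GGAATG. An AP-1 match was found in 27 members (9.22%, 6.41 to 13.1), against 8.10% of the list and 6.43% of 200-base windows of the megabase without a site. A TEAD match was found in 36 members (12.3%, 9.01 to 16.5), against 12.3% of the list and 11.3% of the windows without a site. Both were found in 4 members (1.37%), against 1.15% of the list. The RUNX motif TGTGGTT was found in 4.10% of the members and 4.79% of the list. A CArG box, the site of serum response factor, was found in 1 member (0.341%) and in 0.927% of the list. None of these motifs contains another. Outside Lpp, 8 of 41 sites held an AP-1 match (19.5%, 10.2 to 34.0), and inside it 19 of 252 did (7.54%, 4.88 to 11.5). These intervals overlap slightly, which does not show that the shares agree. The difference was not tested, and sites are not replicates. A match says only that the letters are there.

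Among 21755 protein-coding genes, Lpp ranked 5 by the number of sites in its body, after genes that included Foxp1 with 268 sites in 597 kb. Among 567 genes of 300 kb or more it ranked 6 by density, at 4.21 sites per 10 kb against a median of 0.258, with Ldlrad4 first at 6.11. These ranks follow from the density that chose the stretch. The other zyxin family members are far shorter. Zyx, the founding member of the family, had 7 sites in 10.6 kb (6.61 per 10 kb). Limd1, a LIM protein of the Ajuba subfamily, had 20 sites in 42.8 kb (4.67 per 10 kb). Ajuba had 3 sites, Trip6 had 1, Wtip had 4 and Fblim1, which encodes migfilin, had 5. The outermost 5′ end was inside a site in 6 of the 7 genes, all but Fblim1. That site was 8969 bp wide at Ajuba, 4431 bp at Zyx, 3974 bp at Lpp, 3675 bp at Wtip, 2255 bp at Trip6 and 1814 bp at Limd1. The width of the site over the 5′ end of Lpp was thus within the range of its relatives, while its number of sites, over a far longer gene, was above the 1 to 20 of the others.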

How the data were processed

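H3K27ac ChIP-seq was carried out in iMEF on 12 libraries with 2 inputs. The authors trimmed reads, aligned them to mm10 with BWA, applied ENCODE filters, merged replicates with Picard, called narrow peaks with MACS and joined them. How peaks were joined is not given in the sources used here, so a wide site and several overlapping peaks of different samples cannot be told apart. The deposited values are genome positions only (unit: other). They hold no counts, and the depth is unknown. Starts were counted from 0 and are printed from 1.

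The megabase, the gene lists and the motifs were chosen with earlier results of these data known. Genes came from GENCODE M21 and RefSeq on GRCm38.p6, sequences from the latter. A site was placed by its middle, a start window was 1 kb, clusters joined gaps under 1 kb, and motifs were read in the central 200 bp. Shares have Wilson 95% intervals. Counting was tested on simulated positions (Python 3.11.15, pandas 2.3.3, numpy 2.4.6, pysam 0.24.0). Named genes were those overlapping the megabase, the nearest coding genes and the zyxin family, and Adgrl3, Foxp1, Ldlrad4 and the comparison with long genes were chosen after the values were seen. Named sites were the widest, those at starts, those at the edges and the clusters. A gene of that comparison is not reported here.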

Additional observations from a re-analysis of the deposited data

How the results depend on the processing

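No paired analysis was possible because positions were joined over all libraries into 1 set and nothing here comes from a test. Of 22 alternatives, 8 left the value within its interval, within 1.5 times or, for the densest intron, at the same intron. The rank of the megabase was 78 for the bin shifted by 0.5 Mb that holds the Lpp 5′ end (152 sites), 16 by base pairs covered and 2 after sites less than 1 kb apart were merged. The share of sites near a start was 6.48% with a window of 3 kb and 0.341% with protein-coding transcripts only. Outside repeats, intron 3 was the densest. The median width was 784 bp after merging. The number of clusters was 169 with gaps under 500 bp, 43 under 5 kb and 14 under the longest gap tried. AP-1 matches rose to 18.8% in the central 400 bp (list, 16.9%) and to 21.2% in the whole site (list, 21.1%). TEAD matches rose to 27.6% (list, 23.5%) and 33.1% (list, 30.0%), as longer windows hold more letters. The number of sites in Lpp was 252 under every definition tried. Widths depend on how peaks were called and joined, and without signal or depth no site can be called stronger than another.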
